A study of Mus musculus with 6 samples.

Results

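The genes of 6 cholesterol synthesis enzymes (Hmgcs1, Idi1, Fdps, Fdft1, Sqle and Lss) and the transcription factor Srebf2 were followed in sorted cells of mouse bone marrow. The submitters labelled both groups of cells long-term haematopoietic stem cells (LT-HSCs). They are 7 of the 26776 genes in the deposited count table and were taken from it by gene name. They do not cover the whole pathway and none of them takes up cholesterol, so uptake is described from a separate list of transport genes. All cells came from mice of genotype Trim47+/eGFP, whose name denotes an enhanced green fluorescent protein reporter at Trim47, and were sorted as eGFPlo (low fluorescence) or eGFPhi (high fluorescence). Each group had 3 libraries, with no further treatment, age or sorting gate given in the sources used here. All cells carried the reporter, so the comparison has no group without it.

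Cholesterol is built in the cytosol and endoplasmic reticulum from acetyl-CoA. A first series of enzymes makes mevalonate and from it the isoprenoid farnesyl diphosphate, which also feeds protein prenylation, dolichol and ubiquinone. Squalene synthase commits farnesyl diphosphate to sterols, and the later enzymes oxidise squalene, close the rings and trim lanosterol to cholesterol. When sterols are scarce, the membrane-bound factor SREBP2, the product of Srebf2, is escorted by SCAP to the Golgi, cleaved, and enters the nucleus to raise transcription of these enzymes. Dividing cells need new membrane and commonly make more sterol.

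SREBP2 binds sterol regulatory elements, usually beside boxes for the factors NF-Y and Sp1. RefSeq (build GRCm38.p6) gave a promoter window, 250 bases before and 50 after the annotated start, for 4 of the 7 genes, namely Hmgcs1, Srebf2, Idi1 and Lss. All 4 are shown, since they let the enzymes' promoters be set beside that of the factor itself. The 250 bases before the start are printed 5′ to 3′ on the plus strand, with matches to the NF-Y box CCAAT (here ATTGG, its reverse complement) and to the sterol regulatory element in capitals. They lie at chr13:119690101-119690350 (Hmgcs1), chr15:82147019-82147268 (Srebf2), chr13:8885356-8885605 (Idi1) and chr10:76531355-76531604 (Lss). The RefSeq starts differ from the starts of the gene loci given below. The ends of the Srebf2, Idi1 and Lss stretches therefore lie inside those loci, and so do both Idi1 CCAAT matches.

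Hmgcs1: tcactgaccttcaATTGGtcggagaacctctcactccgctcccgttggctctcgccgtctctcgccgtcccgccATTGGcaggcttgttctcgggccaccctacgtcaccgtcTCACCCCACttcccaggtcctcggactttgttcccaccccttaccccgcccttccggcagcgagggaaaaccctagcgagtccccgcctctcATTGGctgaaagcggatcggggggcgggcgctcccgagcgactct

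Srebf2: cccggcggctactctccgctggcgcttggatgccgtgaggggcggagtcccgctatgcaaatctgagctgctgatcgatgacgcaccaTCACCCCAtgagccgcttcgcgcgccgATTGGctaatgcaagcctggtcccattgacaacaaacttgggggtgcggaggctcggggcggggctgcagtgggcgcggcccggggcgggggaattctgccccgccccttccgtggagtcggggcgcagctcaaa

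Idi1: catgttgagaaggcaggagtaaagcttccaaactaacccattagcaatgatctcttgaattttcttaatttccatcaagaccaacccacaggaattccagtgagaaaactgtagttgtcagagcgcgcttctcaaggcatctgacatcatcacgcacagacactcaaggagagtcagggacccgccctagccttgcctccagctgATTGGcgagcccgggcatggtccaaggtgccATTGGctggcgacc

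Lss: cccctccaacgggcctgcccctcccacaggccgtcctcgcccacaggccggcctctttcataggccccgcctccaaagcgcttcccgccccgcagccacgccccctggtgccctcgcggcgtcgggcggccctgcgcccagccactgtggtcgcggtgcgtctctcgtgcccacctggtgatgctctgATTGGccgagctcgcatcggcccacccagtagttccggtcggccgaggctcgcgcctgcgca

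The element TCACNCCAC, searched on both strands, matched the Hmgcs1 window as TCACCCCAC, at bases -137 to -129 counted from the start. It occurred in 1.24% of all 32851 windows of that table and in no other of the 4. The Srebf2 window held the same letters without the last C (TCACCCCA, at bases -162 to -155), a shortened motif looked for after the sequence was seen and found in 4.36% of windows. All 4 windows held CCAAT, each time on the minus strand, against 37.4% of all windows with it on either strand. There were 4 matches for Hmgcs1 (1 of them after the start), 2 for Idi1 and 1 each for Lss and Srebf2. All 4 also held the Sp1 box GGGCGG on one strand or the other, against 35.7% of windows, and none held the E-box CACGTG, against 7.15%. These motif letters overlap in no base within the 4 windows, apart from the full and the shortened form of the same element in Hmgcs1. A match of letters shows no binding.

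Libraries held 11221070 to 26058391 counts. Levels are CPM (TMM-normalised counts per unit of library size), and differences are eGFPhi over eGFPlo. Trim47, the sorted reporter's gene, stood at 8.12 CPM in eGFPlo and 23.7 CPM in eGFPhi. Marker counts here are of genes with an adjusted p under 0.05 (edgeR quasi-likelihood test). Of all genes tested, 32.3% were higher and 31.7% lower. Of the stem cell markers, 10 of 10 were higher in eGFPhi (summed 1076 to 1111 CPM in eGFPlo and 2544 to 2741 CPM in eGFPhi). Their levels ran from 0.440 CPM (Hoxb5) to 416 CPM (Angpt1) in eGFPlo and from 4.29 to 818 CPM for the same genes in eGFPhi. The groups also differed in other cell types' genes. Granulocyte-monocyte progenitor markers fell in 8 of 8 cases (summed 6257 to 6374 against 849 to 1076 CPM), B lineage markers in 9 of 9 (6120 to 6209 against 736 to 760 CPM), proliferation genes in 10 of 10 (3620 to 3665 against 1643 to 1660 CPM) and erythroid markers in 7 of 7 (96.9 to 121 against 33.02 to 40.9 CPM). Calr made up most of the progenitor sum in eGFPhi (565 to 783 CPM). It fell 1.61-fold, while the others of that list fell 4.15- to 27.9-fold. In eGFPlo Mpo stood at 3885, Ighm at 3026 and Mki67 at 1803 CPM, against 189, 394 and 748 CPM in eGFPhi. Summed T and NK markers were 21.4 to 24.1 against 2.58 to 3.75 CPM (4 of 6 testable, all lower, with Trbc2 at 0 counts in eGFPhi), and stroma and endothelium markers 69.0 to 75.1 against 82.0 to 83.0 CPM (4 of 6 testable, 3 higher and 1 lower). Pecam1, which fell, made up most of the latter sum (68.5 against 58.8 CPM). Col1a2 (2.90 against 13.5 CPM), Kdr (0.303 against 5.97 CPM) and Cxcl12 (0.932 against 4.33 CPM) rose. The part of all these markers in the results below was not tested, and in sorted bulk RNA fewer cells of a type cannot be told apart from less RNA per cell.

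In eGFPhi, 4 of the 7 genes were lower at an adjusted p under 0.05 (edgeR quasi-likelihood test, Benjamini-Hochberg adjustment over 18081 genes). Among the 6 enzymes followed, they were the 4 that act before squalene is oxidised, Hmgcs1, Idi1, Fdps and Fdft1. Other enzymes that act before that step, given below, had higher means in eGFPhi. Of the 7, Srebf2 alone was called higher. Sqle and Lss, the later ones of the 6, had higher means in eGFPhi and missed the threshold. Of all genes tested, 31.7% were lower and 32.3% higher, 64.0% in all, so 5 of 7 past the threshold is near the background. The 3 values of one group lay wholly apart from those of the other for 6 of the 7, against 69.8% of all genes. The median log2 fold change of the 7 was -0.21 and that of all genes 0.00346. The differences were small except for Fdps: 77.2% of tested genes had a smaller absolute log2 fold change than Fdps, while for the other 6 this share was 26.3 to 53.5%. An exact two-sided permutation test of a single gene cannot go below p = 0.1 with 3 libraries against 3, and gave 0.1 for each of the 7 except Lss, at 0.2. With an assumed biological coefficient of variation of 0.2, in place of the 0.0941 estimated from these libraries, 36.6% of genes passed and Fdps was the member that did. Whether replicate libraries trace back to different mice or sorts is not recorded, and the p-values then reflect library-to-library spread that may be technical.

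**Figure D1:**
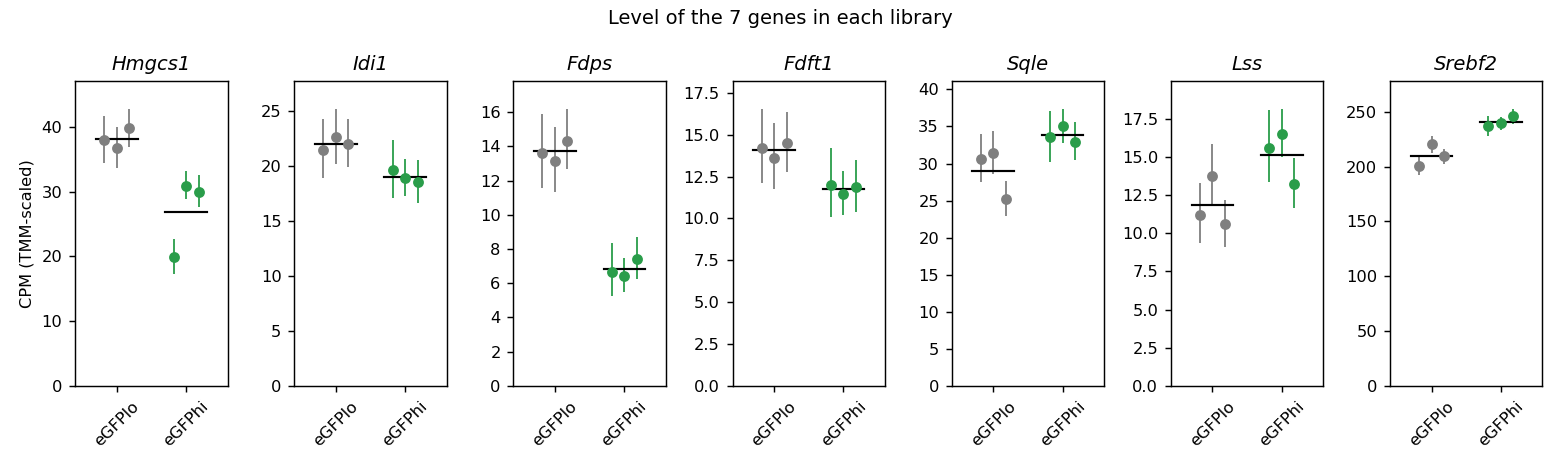
Level of each gene (TMM-scaled CPM, linear axes from 0) in the 3 eGFPlo (grey) and 3 eGFPhi (green) libraries, replicates 1 to 3 from left to right; vertical bars are 95% Poisson intervals of the count and horizontal lines are group means. Fdps shows the widest gap relative to its level, 1 Hmgcs1 point of eGFPhi (19.8 CPM) sits below the others, and the groups share values only for Lss.

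Hmgcs1 (ENSMUSG00000093930, chromosome 13, 119690379 to 119708260, plus strand, GRCm38) encodes the cytosolic synthase that joins acetyl-CoA to acetoacetyl-CoA at the head of the mevalonate route. It measured 38.0, 36.8 and 39.8 CPM in eGFPlo replicates 1 to 3 and 19.8, 30.9 and 30.0 CPM in eGFPhi replicates 1 to 3. All eGFPhi libraries lay below all eGFPlo libraries, and eGFPhi replicate 1 stood apart from the other two. Its 223 counts have a 95% Poisson interval of 17.3 to 22.6 CPM, which does not reach the intervals of replicates 2 (28.8 to 33.1 CPM) and 3 (27.6 to 32.5 CPM). The group means were 38.2 ± 1.54 and 26.9 ± 6.15 CPM (SD, n = 3), a log2 fold change of -0.49 (SE 0.15, edgeR adjusted p = 0.0229). Without eGFPhi replicate 1 the change was smaller and the p lower, at -0.32 and an adjusted p of 0.00439. Dropping eGFPlo replicate 1 or 3 ended the call (adjusted p = 0.0515 and 0.0650). The antisense gene Gm48342 shares 557 bases of exon with Hmgcs1 and was not analysed here. Within eGFPhi the coefficient of variation was 22.8%, against 4.98% from counting alone. No other member had a coefficient of variation above 14.2% in either group.

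Idi1 (ENSMUSG00000058258, chromosome 13, 8885501 to 8892451, plus strand) encodes the isomerase that interconverts the 2 five-carbon isoprenoid units. Its levels were 21.4, 22.6 and 21.98 CPM in eGFPlo and 19.6, 18.9 and 18.5 CPM in eGFPhi, so the groups did not overlap although they lay close together. The fall was 13.8% in the fit (log2 fold change -0.21, SE 0.06, edgeR adjusted p = 0.0209). It lost its call in DESeq2 (adjusted p = 0.123) and without eGFPlo replicate 2, eGFPhi replicate 2 or eGFPhi replicate 3 (0.0561 to 0.0664).

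Fdps (ENSMUSG00000059743, chromosome 3, 89093588 to 89101959, minus strand) encodes farnesyl diphosphate synthase, which makes the branch-point isoprenoid of the pathway. It gave 13.6, 13.1 and 14.3 CPM in eGFPlo and 6.68, 6.42 and 7.40 CPM in eGFPhi. Every eGFPhi value was close to the middle of the distance from 0 to the eGFPlo values. Means were 13.7 ± 0.605 and 6.83 ± 0.509 CPM (SD, n = 3), a 2.01-fold fall (log2 fold change -1.01, SE 0.10, 95% interval -1.24 to -0.78, edgeR adjusted p = 8.29e-05). The gene passed in each alternative fit that was run, at -1.07 to -0.95 when single libraries were left out and at -0.63 on the log2(FPKM + 1) scale, which compresses low levels.

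Fdps is also the gene whose reads are hardest to place. Its transcripts matched 6 annotated processed pseudogenes (intronless copies elsewhere in the genome) over at least 500 bases at 85% identity or more, and 5 of them are in the table. Gm3571, 98.9% identical over 1062 bases, carried 98, 156 and 160 counts in eGFPlo and 62, 164 and 141 counts in eGFPhi, where Fdps itself had 159, 188 and 259 against 75, 167 and 144. The copy thus held fewer counts than Fdps in every library of eGFPlo and came close to it in eGFPhi. Gm3571 fell less than Fdps (9.39 ± 1.33 and 6.35 ± 0.864 CPM; by -0.55 in log2, edgeR adjusted p = 0.0125), and Gm5873, 96.7% identical, fell more (3.31 ± 0.109 and 0.938 ± 0.171 CPM; by -1.79 in log2, adjusted p = 1.00e-04). Which of these reads came from Fdps mRNA is not settled by a table of counts, since the handling of reads that fit several places is not given. With all copies added to Fdps, an alternative chosen after seeing the data, the sum was 27.1 ± 0.751 CPM in eGFPlo and 14.4 ± 1.47 CPM in eGFPhi (SD, n = 3). The log2 fold change was then -0.91 (edgeR adjusted p = 7.26e-05), so the sum fell as well, from about 2 times the level given by the Fdps reads alone. The predicted gene Gm43738 shares 1124 exon bases with Fdps on the same strand and went the other way without passing the threshold (1.16 ± 0.154 against 1.62 ± 0.286 CPM, adjusted p = 0.0883). With its counts added too, the log2 fold change was -0.82.

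**Figure D2:**
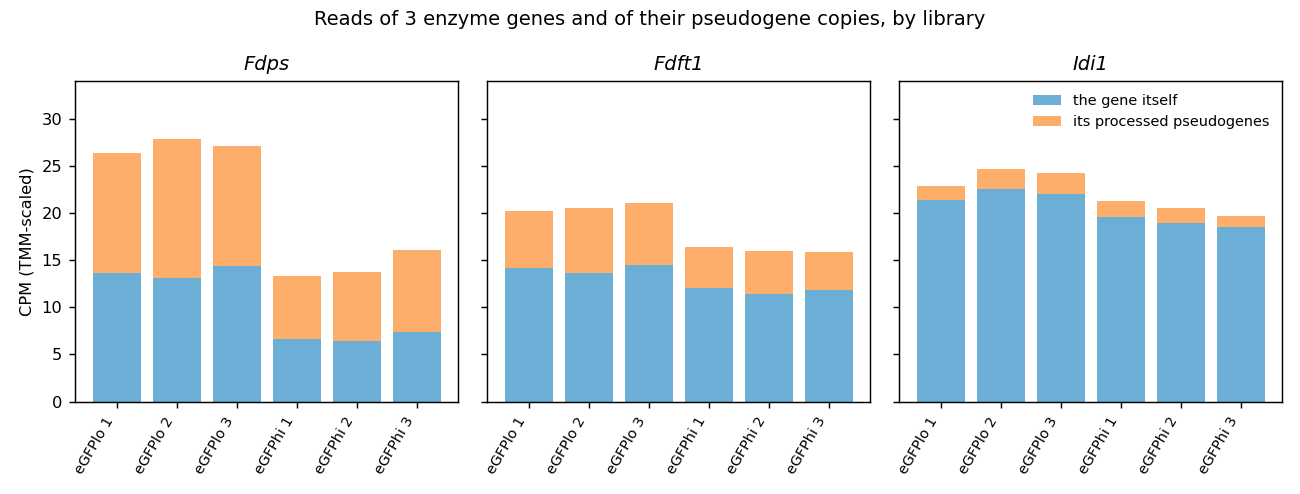
Stacked CPM (TMM-scaled, axis from 0) of Fdps, Fdft1 and Idi1 (blue) and of their annotated processed pseudogenes in the table (orange), 1 bar per library. For Fdps 47.0 to 54.0% of the stacked reads sit in the copies, for Fdft1 25.2 to 33.7% and for Idi1 6.01 to 9.36%, and every stack is lower in eGFPhi than in eGFPlo.

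Fdft1 (ENSMUSG00000021273, chromosome 14, 63145150 to 63179578, minus strand) encodes squalene synthase, the first enzyme committed to sterols. Levels were 14.2, 13.6 and 14.5 CPM in eGFPlo and 12.02, 11.4 and 11.9 CPM in eGFPhi, with a gap between the groups wider than the spread within either. The log2 fold change was -0.26 (SE 0.08, edgeR adjusted p = 0.0199), and the call was lost in DESeq2 (0.128) and without eGFPlo replicate 3 or eGFPhi replicate 2 (0.0595 and 0.0649). Its single pseudogene Gm6781, 97.4% identical over 1249 bases, fell further (6.48 ± 0.463 to 4.30 ± 0.268 CPM, log2 fold change -0.59, adjusted p = 0.00333). Summed with it, Fdft1 changed by -0.36 (adjusted p = 0.00197). The cathepsin B gene Ctsb overlaps 774 exon bases of Fdft1 on the opposite strand. It is far more abundant (112 ± 1.97 against 102 ± 2.50 CPM, log2 fold change -0.14), and reads in the overlap could be told apart only if strand was used, which is not stated.

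Sqle (ENSMUSG00000022351, chromosome 15, 59315077 to 59331192, plus strand) encodes squalene epoxidase, an oxygen-using enzyme and a rate-limiting step after squalene. It stood at 30.6, 31.4 and 25.2 CPM in eGFPlo and at 33.6, 35.0 and 32.9 CPM in eGFPhi. The eGFPhi values were all above the eGFPlo values, and eGFPlo replicate 3 was the low point. The log2 fold change of 0.23 (SE 0.09, 95% interval 0.02 to 0.43) had an edgeR adjusted p of 0.0564. Without eGFPlo replicate 3 it was 0.13, and without eGFPlo replicate 2 it was 0.29 and past the threshold (0.0363).

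Lss (ENSMUSG00000033105, chromosome 10, 76531588 to 76557138, plus strand) encodes lanosterol synthase, which folds oxidosqualene into the first sterol. Its levels were 11.2, 13.8 and 10.6 CPM in eGFPlo and 15.6, 16.5 and 13.2 CPM in eGFPhi, and the highest eGFPlo library exceeded the lowest eGFPhi library. The log2 fold change was 0.35 (SE 0.13, 95% interval 0.04 to 0.66) with an edgeR adjusted p of 0.0502. It passed when eGFPlo replicate 2 (0.47) or eGFPhi replicate 3 (0.45) was dropped. The antisense gene 4930483K19Rik shares 381 exon bases with Lss. The intervals of Sqle and Lss reach up to 1.35-fold and 1.58-fold, so a rise of that size is not shown to be absent.

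Srebf2 (ENSMUSG00000022463, chromosome 15, 82147181 to 82205379, plus strand), the regulator, was the most abundant of the 7. It measured 200, 220 and 209 CPM in eGFPlo and 237, 239 and 246 CPM in eGFPhi, with no overlap. The rise was 14.7% in the fit (log2 fold change 0.20, SE 0.04, edgeR adjusted p = 0.00253), and it kept its call when any single library was left out (log2 fold changes 0.16 to 0.23). With the assumed coefficient of variation of 0.2 it did not pass (adjusted p = 0.565). Transcript level says nothing of how much SREBP2 is cleaved.

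Levels of different genes were compared per kilobase of merged exons, a length that is inflated for genes with many annotated isoforms. In eGFPlo the order of the level was Srebf2 (29.2 ± 1.40 CPM per kilobase), Hmgcs1 (8.31 ± 0.335), Idi1 (6.27 ± 0.165), Sqle (5.24 ± 0.607), Fdft1 (3.34 ± 0.106), Fdps (3.26 ± 0.144) and Lss (1.099 ± 0.156). Only the neighbours Fdft1 and Fdps overlapped in their library values there. In eGFPhi it was Srebf2 (33.5 ± 0.623 CPM per kilobase), Sqle (6.10 ± 0.196), Hmgcs1 (5.86 ± 1.34), Idi1 (5.42 ± 0.157), Fdft1 (2.79 ± 0.0694), Fdps (1.62 ± 0.121) and Lss (1.40 ± 0.158). There Hmgcs1 overlapped with both Sqle and Idi1, and Fdps with Lss. By mean level Sqle thus stood below Hmgcs1 and Idi1 in eGFPlo and above both in eGFPhi, and Fdps came down to the range of Lss. Within eGFPhi, Sqle was above Hmgcs1 only in replicate 1 (6.05 against 4.32 CPM per kilobase). Hmgcs1 was above Sqle in replicates 2 (6.73 against 6.32) and 3 (6.53 against 5.94). The level of Fdps would be higher in both groups with its pseudogene reads, but so would that of Fdft1. With copies added, Fdps and Fdft1 summed to 27.1 and 20.6 CPM in eGFPlo and to 14.4 and 16.1 CPM in eGFPhi. Their merged exons are of near equal length (4208 and 4227 bases). Fdps would then stand above Fdft1 in eGFPlo and stay below it in eGFPhi.

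The make-up of the enzymes' reads shifted between the groups. Together the 6 enzymes held 126 to 131 CPM in each eGFPlo library and 107 to 119 CPM in each eGFPhi library. Hmgcs1, Idi1, Fdps and Fdft1 summed to 88.0 ± 2.37 CPM in eGFPlo and 64.5 ± 5.55 CPM in eGFPhi, while Sqle and Lss summed to 40.9 ± 4.75 and 48.9 ± 2.72 CPM (SD, n = 3). The ratio of the later pair to the earlier 4 was 0.479, 0.524 and 0.395 in eGFPlo replicates 1 to 3 and 0.845, 0.762 and 0.681 in eGFPhi replicates 1 to 3. This ratio does not depend on library scaling, and its groups did not overlap. Sqle reads exceeded Fdps reads 1.76 to 2.39 times in eGFPlo and 4.45 to 5.46 times in eGFPhi. With pseudogene reads counted for their parent genes, the Sqle to Fdps ratio was lower, at 0.930 to 1.16 in eGFPlo and 2.05 to 2.55 in eGFPhi, and that of the later pair to the earlier 4 was 0.319 to 0.411 and 0.565 to 0.693. The groups did not overlap in either. These ratios were chosen after the values were seen and are given without a test. They cover these 6 enzymes only. Among the further enzymes below, the earlier ones had higher means in eGFPhi and the later ones lay on both sides.

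**Figure D3:**
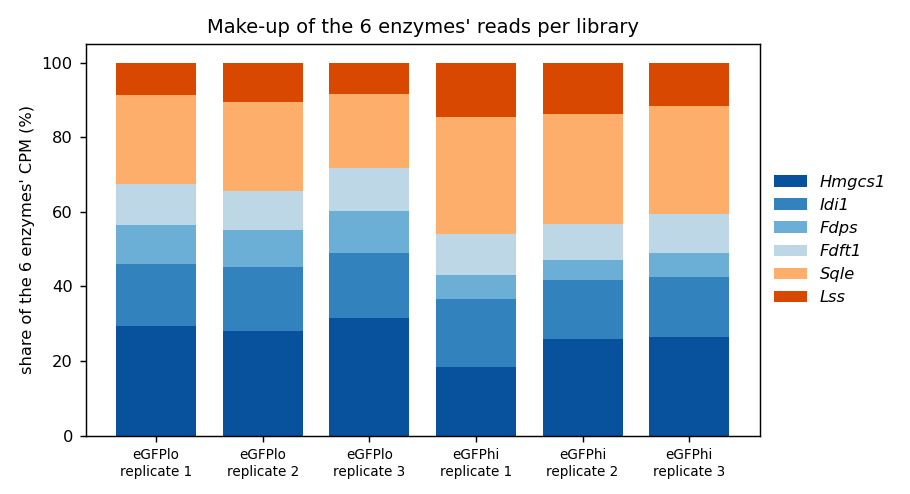
Share of each enzyme in the summed CPM of the 6 enzymes (stacked to 100%), 1 bar per library; blues are the enzymes up to squalene synthase, oranges the 2 after it. Sqle takes 19.9 to 23.9% in eGFPlo and 28.9 to 31.3% in eGFPhi, and Fdps 10.0 to 11.3% and 5.38 to 6.50%.

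Replicates of Idi1, Fdft1 and Fdps agreed more closely than counting error alone would have it, and those of Lss did not. For Idi1 the coefficient of variation was 2.63% in eGFPlo and 2.89% in eGFPhi, where counting gives 5.66 and 5.58%. For Fdft1 it was 3.17 and 2.49%, where counting gives 7.06 and 7.09%, and for Fdps 4.42 and 7.45%, where counting gives 7.18 and 9.36%. Sqle in eGFPlo (11.6 against 4.91%) and Lss in both groups (14.2 against 7.73% and 11.3 against 6.31%) varied more than counting. So did Srebf2 in both groups (4.79 against 1.83% and 1.86 against 1.58%) and Hmgcs1 in eGFPhi. Hmgcs1 in eGFPlo (4.03 against 4.30%) and Sqle in eGFPhi (3.20 against 4.21%) varied less. With 3 libraries a coefficient of variation is itself imprecise.

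Profiles were compared with those of 12507 tested genes above a low minimum mean CPM, without predicted-model or mitochondrial genome names. By root mean square distance of centred log2 CPM over the 6 libraries, each member's nearest profile among them was a gene outside the pathway. These were Fam53b for Hmgcs1 (distance 0.0121), Ndufa3 for Idi1 (0.0124), Tmsb10 for Fdps (0.0403), Caprin1 for Fdft1 (0.0168), Tinf2 for Sqle (0.0365), Akr1e1 for Lss (0.0364) and Chka for Srebf2 (0.0146). The nearest fellow member ranked between 120 (Sqle, seen from Lss) and 2216 (Fdft1, seen from Hmgcs1). Idi1 and Fdft1 were the closest pair of members, at 0.0562. With 2 groups of 3, such likeness mostly reflects the size of the group difference.

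Further enzymes of the pathway were found on both sides. Of 13 on a list that holds none of the 7, 3 were higher, 3 lower and 7 not past the threshold, the median being 0.18 in log2 and the groups lying apart for 8. Over all genes 64.0% passed and the groups lay apart for 69.8%, so both counts were below the background share. Of the earlier enzymes, Acat2, the cytosolic thiolase that supplies acetoacetyl-CoA, rose from 9.60 ± 0.867 to 13.0 ± 0.475 CPM (log2 fold change 0.43, edgeR adjusted p = 0.00630). The mevalonate kinase gene Mvk (0.18, adjusted p = 0.343), the phosphomevalonate kinase gene Pmvk (0.26, 0.0529) and the decarboxylase gene Mvd (0.64, 0.0537) did not pass, all with higher means in eGFPhi. The steps between mevalonate and Idi1 thus held no gene called lower.

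After lanosterol, Sc5d, which encodes the sterol desaturase that introduces the C5 double bond, went from 9.51 ± 0.660 to 18.5 ± 1.76 CPM, a 1.96-fold rise (0.97 in log2, edgeR adjusted p = 1.23e-04). Cyp51, the lanosterol demethylase gene, rose 1.19-fold (31.3 ± 2.55 to 37.4 ± 2.51 CPM, adjusted p = 0.0231), a call lost without eGFPlo replicate 2 or 3 or eGFPhi replicate 1 or 2 (0.0536 to 0.0768). Both genes for the sterol C14 reductase step fell. Lbr, which also encodes a lamin receptor of the nuclear envelope, went from 265 ± 19.4 to 162 ± 14.4 CPM (log2 fold change -0.72, adjusted p = 1.03e-04), and Tm7sf2 from 2.65 ± 0.507 to 1.43 ± 0.128 CPM (log2 fold change -0.91, adjusted p = 0.00514). Ebp, the sterol isomerase gene, fell from 16.1 to 13.1 CPM (adjusted p = 0.0245), a call lost in DESeq2 (0.110) and without replicate 1 or 2 of either group (0.0605 to 0.0712). Msmo1 (log2 fold change -0.02), Nsdhl (0.20), Hsd17b7 (-6.01e-04) and Dhcr7 (0.06), which encode the demethylation complex and a late reductase, did not pass (adjusted p = 0.0793 to 0.998).

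**Figure D4:**
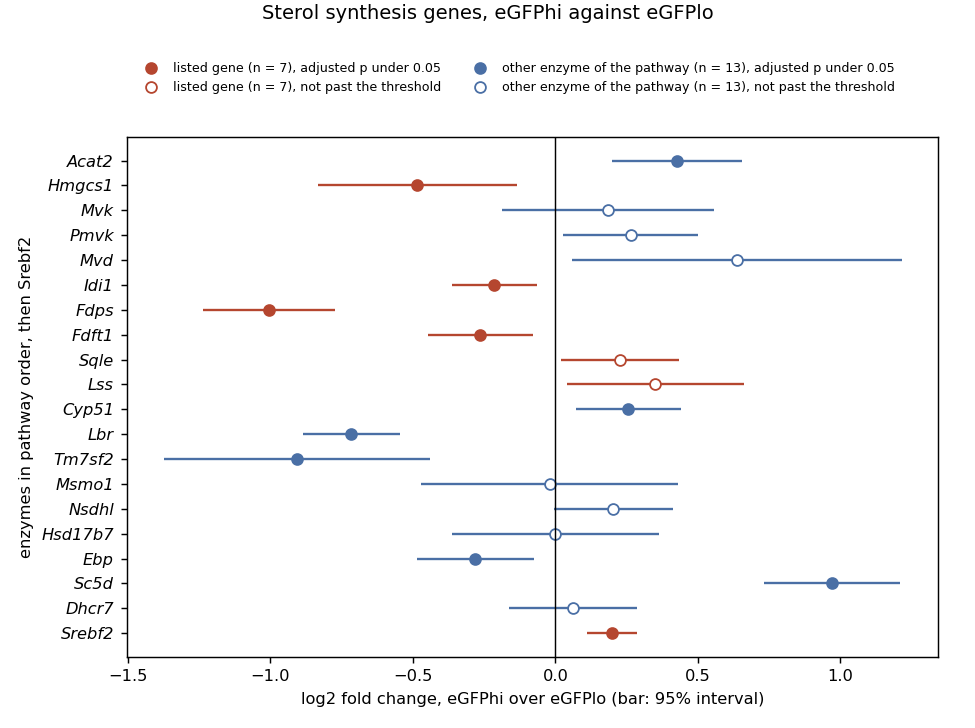
Log2 fold change (eGFPhi over eGFPlo) with 95% interval for the 7 genes (red) and 13 further enzymes (blue), enzymes in pathway order from top to bottom and Srebf2 last; filled points have an adjusted p under 0.05. Fdps (-1.01) and Sc5d (0.97) lie farthest out on either side of 0, and higher and lower genes are mixed along the pathway.

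Of 10 genes that process SREBP or control it, 1 was higher, 2 were lower and 7 did not pass, with a median log2 fold change of -0.04. Of all genes 64.0% passed. Scap, the sterol-sensing escort, fell from 76.8 ± 3.94 to 65.3 ± 0.951 CPM (log2 fold change -0.23, edgeR adjusted p = 0.00297), and Mbtps2, the site-2 protease that releases the active factor, fell 1.57-fold from 28.2 ± 2.41 CPM in eGFPlo (log2 fold change -0.65, adjusted p = 2.81e-04). Rnf139, an endoplasmic reticulum ubiquitin ligase gene, rose 1.41-fold from 35.8 ± 3.89 to 50.8 ± 2.55 CPM (adjusted p = 0.00118). Insig1, which retains the escort and is itself an SREBP target, stood at 43.1 and 41.2 CPM (log2 fold change -0.06, 95% interval -0.17 to 0.05, adjusted p = 0.271). Srebf1, the gene of the related factor for fatty acid synthesis, stood at 49.9 and 49.8 CPM (adjusted p = 0.986). Insig1 and Srebf1 were singled out after their values were seen.

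Uptake and intracellular transport genes went both ways. Of 14 on the list 13 could be tested (the scavenger receptor gene Cd36 was too low), and 4 were higher, 7 lower and 2 not past the threshold, with a median log2 fold change of -0.14. Over all genes 32.3% were higher and 31.7% lower. With the assumed coefficient of variation 2 of the list were higher and 3 lower, where 36.6% of all genes passed. Lrp1, an endocytic receptor of the lipoprotein receptor family, rose from 31.2 ± 0.902 to 49.8 ± 2.38 CPM (log2 fold change 0.68, edgeR adjusted p = 3.23e-05). Scarb1, the receptor for high-density lipoprotein, fell 1.62-fold from 44.0 ± 1.28 to 27.2 ± 2.22 CPM (adjusted p = 9.75e-05). Of the transfer proteins, Gramd1b, which moves cholesterol from the plasma membrane to the endoplasmic reticulum, fell 1.69-fold from 122 ± 6.35 to 72.5 ± 1.52 CPM (adjusted p = 6.64e-06), and Stard4, a soluble sterol carrier, rose 1.66-fold from 47.6 ± 4.96 to 78.8 ± 3.66 CPM (adjusted p = 1.15e-04).

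Genes of sterol export, esterification and the liver X receptor, the sensor of oxysterols, included more higher than lower genes. Of 10, 9 could be tested (Ch25h was too low), and 6 were higher, 2 lower and 1 not past the threshold, with a median log2 fold change of 0.41. Over all genes 32.3% were higher and 31.7% lower. With the assumed coefficient of variation 3 of the list were higher and 1 lower, where 36.6% of all genes passed. Nceh1, a cholesteryl ester hydrolase gene, rose 1.85-fold from 62.4 ± 1.05 to 116 ± 1.05 CPM (edgeR adjusted p = 6.06e-07), and the cholesterol exporter gene Abca1 1.61-fold from 53.7 ± 2.48 to 86.3 ± 4.45 CPM (adjusted p = 2.74e-05). The exporter gene Abcg1 rose by 0.26 on the log2 scale (adjusted p = 3.18e-04) and Nr1h2, encoding liver X receptor beta, 1.32-fold from 89.6 ± 4.63 to 119 ± 0.713 CPM (adjusted p = 1.18e-04). These differences lay between the same libraries in which progenitor, B lineage and proliferation markers fell, and the markers' part in them was not tested.

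**Figure D5:**
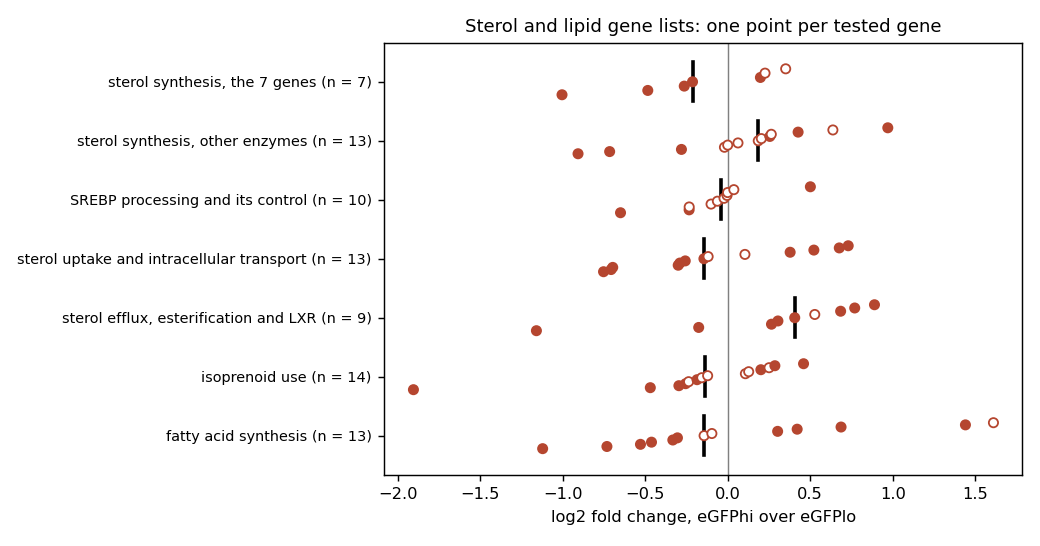
Log2 fold change (eGFPhi over eGFPlo) of each tested gene in 7 sterol and lipid lists; filled points have an adjusted p under 0.05 and the black bar is the list's median. The median is 0.41 for sterol efflux, esterification and the liver X receptor and between -0.21 and 0.18 for the other lists.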

How the data were processed

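Poly-A RNA of sorted LT-HSCs was sequenced as stranded paired-end libraries, per the labels' protocols. The submitters' processing notes name CASAVA 1.8, HISAT2, StringTie and edgeR without roles, beside hg38 and GRCm38 as builds. How reads were counted (program, use of strand, reads with several matches) is not given in the sources. Whole-number counts for every gene, as deposited and named per the file headers, served as raw counts, and the FPKM values made by the authors entered alternatives only. The 7 genes' loci equal those of GENCODE M21 (GRCm38).

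Counts were fitted in R 4.3.3 with edgeR 4.0.16: filterByExpr defaults (minimum count 10, minimum total 15; 18081 genes), TMM scaling, quasi-likelihood F tests on a group term, Benjamini-Hochberg adjustment over all tested genes, threshold 0.05. Each gene's SE is its log2 fold change over the root of F. Poisson intervals are exact at 95% and cover counting error only. Pseudogene copies were found with BLAST 2.17.0 in GENCODE M21 transcripts. Tried as alternatives: upper-quartile or RLE scaling, no low-count filter, 5 CPM in 3 libraries, DESeq2 1.42.0, limma 3.58.1 (voom, or log2 of FPKM plus 1 or 0.1), an assumed coefficient of variation of 0.2 (likelihood ratio test), a replicate term and leaving out each library. The pipeline was tested on simulated data. No label ties equal replicate numbers to one mouse or day, so groups were compared unpaired.

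The 7 genes and all lists were chosen with earlier results of these data known. Named are the 7, all 13 further enzymes, up to 4 genes past the threshold with the smallest p from each other list, 1 nearest profile per member and Trim47; other names were chosen after their values were seen. Some genes of these pathways are not reported here.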

Additional observations from a re-analysis of the deposited data

How the results depend on the processing

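Fdps was past the threshold in every fit run. Direction was the same in all fits for each of the 7 genes. Members called higher were 1 with TMM factors, 3 with upper-quartile factors, the stricter filter or limma-voom, 2 without a filter, 1 by DESeq2 and 0 with an assumed coefficient of variation of 0.2 (0 also at an unadjusted p under 0.05). Members called lower were 4, against 2 by DESeq2 and 1 with the assumed coefficient. Leaving out single libraries gave 1 to 3 higher and 2 to 4 lower. With the assumed coefficient the log2 fold changes of Hmgcs1, Idi1, Fdft1 and Srebf2 were -0.50, -0.21, -0.26 and 0.20, with adjusted p of 0.0934, 0.547, 0.451 and 0.565. By DESeq2 Idi1 and Fdft1 were at -0.21 and -0.26. Sqle passed with upper-quartile factors (0.25), the stricter filter (0.24) and limma-voom (0.25), and Lss with upper-quartile factors (0.38), no filter (0.37), the stricter filter (0.37) and limma-voom (0.36). With single libraries left out the ranges were -0.60 to -0.32 for Hmgcs1, -0.23 to -0.19 for Idi1, -0.29 to -0.24 for Fdft1, 0.13 to 0.29 for Sqle and 0.27 to 0.47 for Lss. The assumed coefficient cut calls over all genes from 5840 to 3637 higher and from 5731 to 2982 lower. In that fit 36.6% of all genes passed. It left 3 calls among the further enzymes, 1 in SREBP processing, 5 in uptake, 4 in efflux, 1 in isoprenoid use and 5 in fatty acid synthesis. Where calls changed, the cause was not tested.

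The replicate block gave 3 members higher and 4 lower, with Sqle at 0.23 (adjusted p = 0.0433) and Lss at 0.35 (0.0229), and over all genes 5551 higher and 5414 lower. Ebp lost its call there (adjusted p = 0.0528). Same-numbered libraries' deviations from their group means correlated at -0.0133, 0.000555 and -0.0108, and 0 of 6 libraries correlated best with their own number, so the numbers were not taken to pair the libraries.

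Some values near 0 changed sign. Msmo1 was at 0.0041 with upper-quartile factors, 0.048 with limma-voom and -0.15 to 0.18 with single libraries left out. Hsd17b7 was at 0.024 with upper-quartile factors, 0.015 without a filter, 0.018 with the stricter filter, 0.0036 by DESeq2, 0.014 with limma-voom, 0.0045 and 0.013 on log2 FPKM with a pseudocount of 1 and 0.1, and -0.11 to 0.15 with single libraries left out. Dhcr7 ranged from -0.0019 to 0.12 with single libraries left out. Depth limits Lss, Fdps and Fdft1 most, with 75 to 430 counts per library.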

Other observations

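Genes that use isoprenoids drawn from farnesyl diphosphate were divided. Of 14 tested, 3 were higher, 5 lower and 6 not past the threshold (edgeR), with a median log2 fold change of -0.14. Of all genes 64.0% passed. Icmt, which encodes the methyltransferase that finishes prenylated proteins, fell 3.75-fold from 22.1, 32.6 and 19.7 CPM in eGFPlo to 5.87, 6.03 and 7.81 CPM in eGFPhi (log2 fold change -1.91, SE 0.21, adjusted p = 1.68e-04), and its eGFPlo libraries were widely spread. The geranylgeranyl transferase subunit gene Pggt1b rose 1.37-fold (58.1 ± 3.32 to 79.8 ± 4.07 CPM, adjusted p = 2.92e-04) and Fnta, a subunit shared by both prenyl transferases, rose 1.22-fold (adjusted p = 0.00128). Nus1, of the dolichol-making enzyme, fell 1.23-fold (adjusted p = 6.30e-04).

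Of 13 fatty acid synthesis genes, 4 were higher, 6 lower and 3 not past the threshold, with a median of -0.14, against the same background share of 64.0%. The elongase genes Elovl5 and Elovl6 fell 2.18-fold (84.0 ± 1.66 to 38.6 ± 0.509 CPM, adjusted p = 4.55e-07) and 1.44-fold (adjusted p = 1.44e-05), and the fatty acid synthase gene Fasn fell 1.26-fold from 230.0 ± 1.04 to 182 ± 3.87 CPM (adjusted p = 2.38e-05). The desaturase gene Scd2 rose 1.23-fold from 201 ± 1.26 to 248 ± 1.68 CPM (adjusted p = 1.85e-05). Fads1, encoding a desaturase of polyunsaturated fatty acids and named after its values were seen, stood at 23.6, 36.5 and 22.3 CPM in eGFPlo and at 73.1, 73.8 and 76.5 CPM in eGFPhi. Progenitor, B lineage and proliferation markers fell in the same libraries, and their part in these differences was not tested.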
